A study of Danio rerio with 12 samples.

Results

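The genes described here are 10 members of the vertebrate circadian clock: per1a, per1b, per2, per3, clocka, clockb, ciarta, nr1d1, nr1d2b and tefa. They were chosen by gene symbol from the 32520 genes counted in each library, and all 10 had counts in all 12 libraries and passed the filter on low counts. The study asked how repeated heat, and medium taken from heat-stressed embryos, change gene expression in zebrafish. Each library was made from polyadenylated RNA of 1 pool of 20 whole wild-type embryos of the AB line at 1 day post fertilisation (dpf), and there were 3 pools for each of 4 treatments. TS+SM embryos received thermal stress (TS) together with stress metabolites (SM), TS embryos received thermal stress in fresh medium, SM embryos were kept at 27 °C in used medium, and control (C) embryos were kept at 27 °C in fresh medium. Thermal stress was 24 h of temperature cycling through 27, 29, 32, 29 and 27 °C in steps of 15 min, with 19 cycles in all. SM was medium pooled from embryos that had gone through thermal stress on the previous day. All embryos were kept singly, in darkness, and all were sampled at the same clock hour. The data are therefore from a single clock hour, and neither phase nor amplitude of a rhythm was measured. Whether the pools shared a phase was not measured either.

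The vertebrate clock is a feedback loop of transcription. CLOCK and BMAL proteins bind DNA together and switch on the period (per) and cryptochrome (cry) genes, whose products return to the nucleus and repress CLOCK and BMAL. A side loop of nuclear receptors, the repressing NR1D (REV-ERB) and the activating ROR proteins, acts on the bmal genes, and PAR bZIP factors such as TEF carry the rhythm to output genes. In zebrafish most tissues hold a clock that light can set directly, and cycles of temperature can also set it.

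The name table did not give every member under its zebrafish symbol. For per2, per3, ciarta, nr1d1 and tefa the symbol was listed. It listed PER1 for a pair of identifiers, ENSDARG00000012499 and ENSDARG00000056885, and CLOCK for another pair, ENSDARG00000003631 and ENSDARG00000011703. Which of each pair is the a copy and which the b copy was not given, so they are called PER1-12499, PER1-56885, CLOCK-3631 and CLOCK-11703 after the ends of their identifiers. NR1D2 (ENSDARG00000009594) was taken as nr1d2b because nr1d2a was listed separately. The copies of a pair are paralogs whose reads can be hard to separate.

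None of the 10 clock genes passed the test with heat under the main scaling of the libraries. Levels are in CPM (counts scaled to a common library size) after TMM scaling, which corrects library totals for differences in composition, and differences are log2 fold changes (LFC) from edgeR's quasi-likelihood test, called at a Benjamini-Hochberg adjusted P (P-adj) of 0.05 or less over 18688 genes. In TS vs. C, 0 of 10 members were called, against 0.0963% of all genes tested. In TS+SM vs. SM, 0 of 10 were called, against 0.107% of all genes. With the heat difference averaged over both media, 0 of 10 were called, against 0.851% of all genes. At an unadjusted P under 0.05, 1 member stood out in TS vs. C and in the averaged difference, and none in TS+SM vs. SM, while 4.45%, 9.36% and 6.01% of all genes did so in those comparisons. DESeq2 also called 0 of 10 members in each of the 3, against 0.575%, 0.792% and 2.34% of the genes to which it gave an adjusted P in TS vs. C, TS+SM vs. SM and the averaged difference. The median LFC of the 10 members was 0.06 in TS vs. C, 0.01 in TS+SM vs. SM and 0.01 in the averaged difference, where the median of all genes was -0.0027.

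The heat cycles did leave a mark on other genes in the same libraries, which were listed with earlier results of these data known. The paper had already reported hsp90aa1.2 and hsp70.3 as raised in TS, so their calls are no separate evidence. HSP90AA1, a chaperone gene taken here as hsp90aa1.2, lay between 62.1 and 93.4 CPM in the 6 heated pools, against 16.8 to 23.6 CPM in the 6 unheated pools (averaged LFC 1.94 ± 0.11, standard error; edgeR P-adj = 2.82e-05). The inducible chaperone gene hsp70.3 also rose (LFC 1.56 ± 0.13, P-adj = 0.000298). These 2 were the only genes called of the 8 heat shock genes and factors tested, 5 of which had a positive and 3 a negative averaged LFC, where 0.851% of all genes were called. In bulk RNA, fewer cells of a type and less RNA per cell cannot be told apart.

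**Figure D1:**
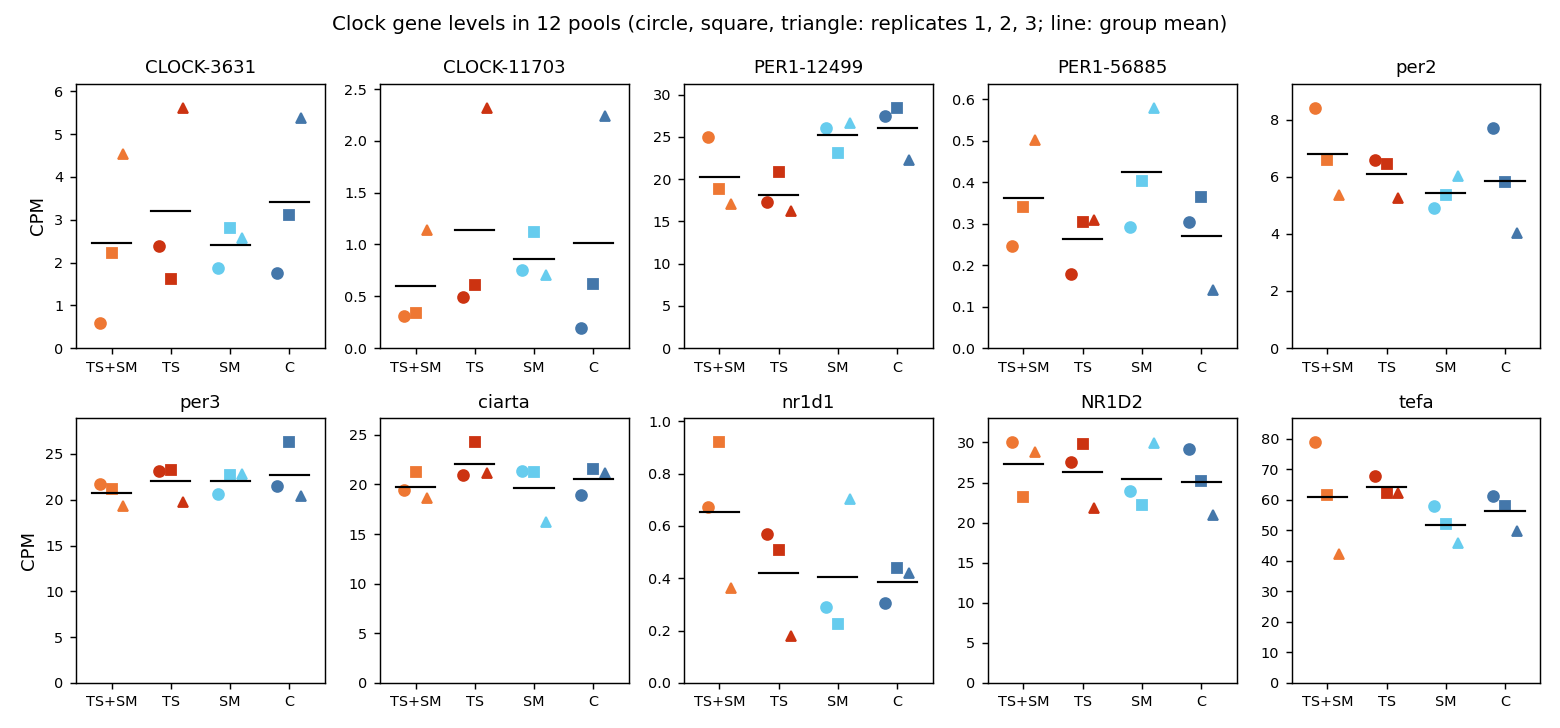
CPM (linear axis from 0) of the 10 clock genes in the 12 pools, grouped as TS+SM, TS, SM and C, with circle, square and triangle for replicates 1, 2 and 3 and a line for the group mean. PER1-12499 sits lower in all 3 TS pools than in all 3 C pools, while the CLOCK genes differ more between pools of a group than between groups.

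Of the 4 period genes, which encode the repressing arm of the loop, PER1-12499 had the lowest P with heat. It stood at 17.2, 20.8 and 16.3 CPM in TS pools, against 27.5, 28.5 and 22.2 CPM in C pools. It stood at 24.9, 18.8 and 17.0 CPM in TS+SM pools, against 26.1, 23.1 and 26.6 CPM in SM pools. The TS and C pools did not overlap, whereas TS+SM replicate 1 lay within the range of the SM pools. Among all genes, 5.47% were lower in TS than in C without overlap. In TS+SM vs. SM, 0 of 10 members had groups that did not overlap, against 10.3% of all genes, and between the 6 heated and the 6 unheated pools 0 of 10 did, against 2.03%. The LFC was -0.53 ± 0.17 in TS vs. C (0.694 times the C level; edgeR P-adj = 0.679) and -0.32 ± 0.17 in TS+SM vs. SM (0.803 times the SM level; P-adj = 0.958). The TS+SM vs. SM value was -0.50 without TS+SM replicate 1 and -0.19 without TS+SM replicate 3. Averaged over the media it was -0.42 ± 0.12, with a 95% interval of -0.69 to -0.16 (edgeR P-adj = 0.185), and 487 of the 18688 genes had a smaller P. The interaction of heat and SM was 0.21 ± 0.24 (edgeR P-adj = 1.00), with an interval of -0.32 to 0.74, so a difference between the media was not shown.

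The direction for PER1-12499 was negative in every alternative run for the heat comparisons, but the call depended on the scaling. With library totals in place of TMM, the averaged LFC was -0.51 and its P-adj was 0.0358, which passed the threshold. That scaling moved the median of all genes in this comparison to -0.07. Over the 12 pools, PER1-12499 had r = -0.346 and rho = -0.252 with the log2 TMM factor (permutation P = 0.271 and 0.43, adjusted 0.533 and 0.658), and r was -0.870 after removing group means. With library totals in place of TMM, r over the 12 pools was 0.340, so its sign depended on the scaling. Without TS+SM replicate 1, the averaged LFC was -0.51 (P-adj = 0.0940). From a list of segmentation genes, markers of somite formation and so of stage, 13 matched identifiers were tested. Of these, 8 were called lower in the averaged heat difference, 2 in TS vs. C and 1 in TS+SM vs. SM. Among all genes, 0.851%, 0.0963% and 0.107% were called in these comparisons. The summed level of the 13 was 166 to 198 CPM in TS+SM pools against 185 to 239 CPM in SM pools, and 187 to 188 CPM in TS pools against 200 to 209 CPM in C pools. The match for dld ignored case and took an identifier listed as DLD, which may be a different gene. Most of the summed level came from dlc and dld, which were not called. The other 11 genes summed to 15.1 to 22.0 CPM in TS+SM pools against 46.5 to 93.4 CPM in SM pools, and to 12.3 to 23.4 CPM in TS pools against 35.8 to 65.6 CPM in C pools. The segmentation clock gene her1, for example, averaged 0.532 ± 0.0671 CPM in TS pools and 3.93 ± 1.14 CPM in C pools (SD, n = 3 each). The paper had already reported her1, her7, mespab, ripply2 and tbx6 as lowered in TS in these libraries. Their calls are no separate evidence. The paper also reported faster development under thermal stress, with heated embryos at a later stage than controls of the same age. It stated that effects of heat stress and of faster development could not yet be told apart. Heated and unheated pools were compared here at the same age, without controls matched for stage. The part of developmental stage in the heat differences, of PER1-12499 and of every other gene given here, was not tested.

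The other period genes showed no difference beyond the spread of the pools. PER1-56885 was close to the limit of counting, with 4 to 14 counts per library, and its averaged heat LFC of -0.15 had a 95% interval of -0.98 to 0.69. The light-inducible gene per2, which is used as a marker of light input in zebrafish, stood at 6.58, 6.45 and 5.26 CPM in TS pools, against 7.72, 5.80 and 4.02 CPM in C pools. In TS+SM pools per2 stood at 8.41, 6.58 and 5.37 CPM, against 4.89, 5.36 and 6.04 CPM in SM pools. The TS pools lay inside the range of the C pools, and 2 of the 3 TS+SM pools lay above every SM pool. The averaged LFC of per2 was 0.19 (interval -0.19 to 0.58, P-adj = 0.905 by edgeR), and 0.090 to 0.33 with 1 library left out.

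The narrowest limits were set for per3 and ciarta. The period gene per3 stood at 23.2, 23.3 and 19.8 CPM in TS pools, against 21.5, 26.3 and 20.5 CPM in C pools, and at 21.7, 21.2 and 19.3 CPM in TS+SM pools, against 20.6, 22.7 and 22.8 CPM in SM pools. Its averaged heat LFC of -0.07 had an interval of -0.28 to 0.15. The repressor gene ciarta, whose mammalian product CIART (CHRONO) binds the CLOCK and BMAL complex, averaged 19.8 ± 1.34 CPM in TS+SM pools, 22.1 ± 1.86 CPM in TS pools, 19.6 ± 2.90 CPM in SM pools and 20.6 ± 1.41 CPM in C pools (SD, n = 3 each). Its averaged heat LFC of 0.06 had an interval of -0.16 to 0.28. In the averaged heat difference the intervals of 5 members (per2, per3, ciarta, NR1D2 and tefa) lay within a 1.5-fold change in either direction, and those of 7, PER1-12499 and PER1-56885 added, within a 2-fold change.

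The CLOCK genes, which encode the activating partner of BMAL, varied from pool to pool. CLOCK-3631 stood at 0.583, 2.23 and 4.55 CPM in TS+SM pools, 2.38, 1.63 and 5.62 CPM in TS pools, 1.86, 2.81 and 2.56 CPM in SM pools and 1.75, 3.10 and 5.39 CPM in C pools. CLOCK-11703 stood at 0.314, 0.339 and 1.14 CPM in TS+SM pools, 0.498, 0.610 and 2.32 CPM in TS pools, 0.757, 1.12 and 0.703 CPM in SM pools and 0.190, 0.620 and 2.24 CPM in C pools. In TS+SM, TS and C the highest pool was replicate 3 for both genes, and in SM it was replicate 2. Over the 12 pools, the highest level was 9.63 times the lowest for CLOCK-3631 and 12.2 times for CLOCK-11703. Within groups, the SD of log2 CPM was 0.941 for CLOCK-3631 and 1.08 for CLOCK-11703, against a median of 0.338 over all genes. The averaged heat LFC was -0.04 (interval -1.05 to 0.98) for CLOCK-3631 and -0.18 (interval -1.49 to 1.13) for CLOCK-11703, and neither interval lay within a 2-fold change. Single libraries turned both signs: CLOCK-3631 was at 0.21 without C replicate 3 and at -0.44 without TS+SM replicate 3, and CLOCK-11703 at 0.48 without C replicate 3 and at -0.69 without TS replicate 3.

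**Figure D2:**
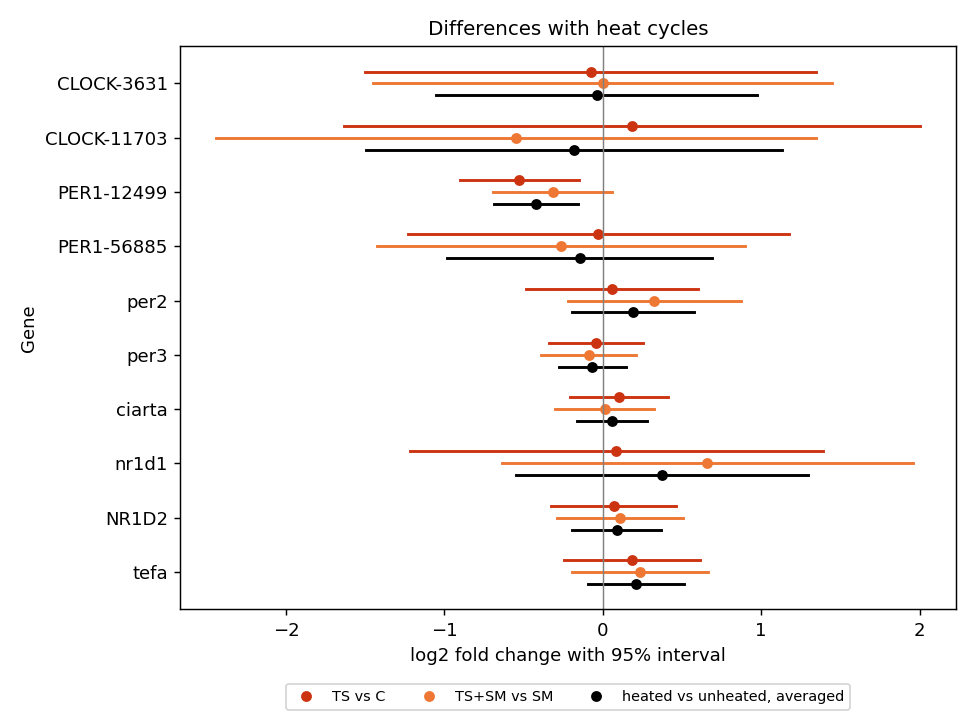
LFC (x axis, log2) of each clock gene in TS vs. C, in TS+SM vs. SM and averaged over the media, with points for the estimates and bars for 95% intervals. The averaged interval lies wholly below 0 for PER1-12499 and crosses 0 for the other 9 genes, and the CLOCK genes, PER1-56885 and nr1d1 have the widest intervals.

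The level of CLOCK-3631 followed the TMM factor of the library, which ranged from 0.740 in TS+SM replicate 1 to 1.23 in TS replicate 3. Pearson's r with the log2 factor was 0.967 and Spearman's rho was 0.916 over the 12 pools (permutation P = 1e-05, the smallest that the 100000 permutations can give, and 0.0001, two-sided; Benjamini-Hochberg adjusted values 0.00055 and 0.00275 over 55 relations). After leaving out the pools farthest from the median factor, TS+SM replicate 1 and TS replicate 3, r was 0.910. It was 0.971 after removing group means and 0.978 on levels scaled by library totals alone. For CLOCK-11703, r with the factor was 0.746 and rho was 0.685 (permutation P = 0.00479 and 0.0169, adjusted 0.0527 and 0.155). Replicate 3 was the highest pool of TS+SM, TS and C not only in the CLOCK pair: 20.3% of all 18688 genes shared this. The permutations treat the 12 pools as exchangeable and do not allow for what pools of the same replicate number share, so these P values, and those between members, may be too small. The factor was itself computed from the counts of these libraries, and its relations were computed only for the clock members. TMM-scaled levels were also divided by the factor, so a level unrelated to it on library totals tends to a negative r. The permutations do not allow for this. The permutation P values set each r or rho against no relation, not against other genes. How many of all 18688 genes followed the factor as closely was not tested. The relation is therefore not shown to be particular to CLOCK-3631. The source of the difference in composition was not tested.

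Among the members, the CLOCK genes were correlated with each other and, under TMM scaling, inversely with per2 across pools. CLOCK-3631 and CLOCK-11703 had r = 0.784 and rho = 0.832 (permutation P = 0.00228 and 0.00139, adjusted 0.0418 and 0.0255), and r was 0.773 without the 2 pools farthest from the median. The highest CLOCK-11703 levels came with the lowest per2 levels (r = -0.867, rho = -0.923; permutation P = 0.00036 and 6e-05, adjusted 0.0099 and 0.00275), and r was -0.829 without C replicate 3 and TS+SM replicate 1. With library totals in place of TMM that r was -0.460, so its size depended on the scaling. For per2 with CLOCK-3631, r was -0.787 with TMM (adjusted permutation P = 0.0419; rho -0.713, adjusted 0.147) and -0.155 with library totals, and with TMM it was -0.533 without C replicate 3 and TS+SM replicate 1. The level of per2 had r = -0.720 and rho = -0.559 with the log2 TMM factor (permutation P = 0.0089 and 0.0625, adjusted 0.0699 and 0.281), and r = -0.049 with library totals. Since TMM-scaled levels were divided by the factor, the permutation P values of per2 with the factor and with the CLOCK genes may be too small. The pools of a group share their treatment, and r between per2 and CLOCK-11703 after removing group means was -0.903.

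**Figure D3:**
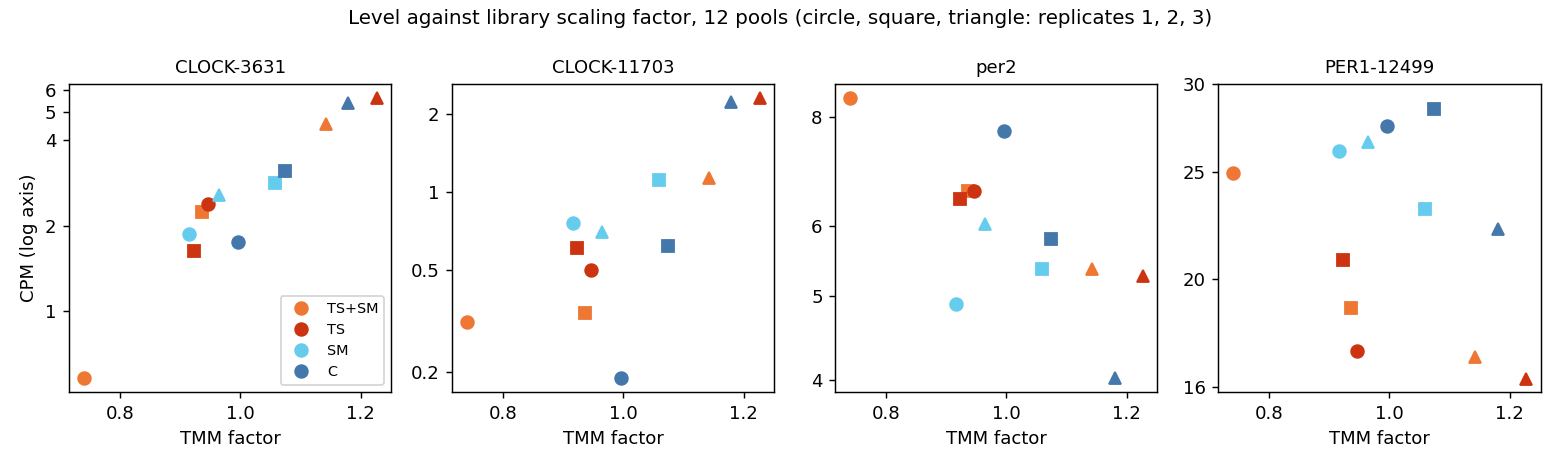
CPM (log axis) of CLOCK-3631, CLOCK-11703, per2 and PER1-12499 against the TMM factor of each of the 12 pools (linear axis, no unit), coloured by treatment and with a marker for each replicate number. CLOCK-3631 climbs with the factor (r = 0.967 with its log2). For PER1-12499, r with the log2 factor was -0.346, and -0.870 after removing group means. It was 0.340 over the 12 pools with library totals in place of TMM. The TS pools of PER1-12499 lie below its C pools. The factors were 0.946, 0.923 and 1.23 in TS pools, against 0.996, 1.07 and 1.18 in C pools. No TS pool had a factor within the range of the C pools.

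The nuclear receptor genes nr1d1 and NR1D2 encode REV-ERB repressors of the side loop. Counts of nr1d1 were 5 to 30 per library. It stood at 0.569, 0.508 and 0.180 CPM in TS pools, against 0.304, 0.438 and 0.420 CPM in C pools, and at 0.673, 0.920 and 0.364 CPM in TS+SM pools, against 0.291, 0.223 and 0.703 CPM in SM pools. Both pairs of groups overlapped, and the averaged heat LFC was 0.37 with an interval of -0.55 to 1.29 (edgeR P-adj = 0.948), and 0.21 to 0.71 with 1 library left out. NR1D2 was more abundant and steadier: it averaged 27.3 ± 3.61 CPM in TS+SM pools, 26.4 ± 4.10 CPM in TS pools, 25.4 ± 4.06 CPM in SM pools and 25.1 ± 4.08 CPM in C pools (SD, n = 3 each). The means followed that order, and no neighbours in it differed beyond their spread. The averaged heat LFC of NR1D2 was 0.09, with an interval of -0.19 to 0.37.

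The output gene tefa encodes a PAR bZIP activator that in zebrafish binds the D-box elements of light-responsive genes. It stood at 67.7, 62.2 and 62.3 CPM in TS pools, against 61.3, 57.8 and 49.8 CPM in C pools, which did not overlap. It stood at 78.7, 61.7 and 42.3 CPM in TS+SM pools, against 57.9, 51.9 and 45.8 CPM in SM pools, where TS+SM gave both the highest and the lowest value of all 12 pools. Among all genes, 5.81% were higher in TS than in C without overlap. The LFC of tefa was 0.19 ± 0.20 in TS vs. C (edgeR P-adj = 1.00) and 0.21 ± 0.14 when averaged over the media (interval -0.09 to 0.51, P-adj = 0.788). Without TS+SM replicate 1 the averaged value was 0.094 and that in TS+SM vs. SM was 0.0014, and without TS+SM replicate 3 they were 0.32 and 0.45. Over the 12 pools, tefa had r = -0.618 and rho = -0.476 with the log2 TMM factor (permutation P = 0.0331 and 0.122, adjusted 0.165 and 0.318). That r was -0.793 after removing group means and 0.227 with library totals in place of TMM, so it depended on the scaling.

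None of the 10 genes passed the threshold with stress metabolite medium either. In SM vs. C, in TS+SM vs. TS and in the difference averaged over temperatures, 0 of 10 members were called, and 0% of all genes were called in each. With no gene called, these counts do not set the members apart from other genes. No member had an unadjusted edgeR P under 0.05 in these 3 comparisons, where 2.12%, 1.45% and 3.82% of all genes did. DESeq2 called 0 of 10 members in each of the 3, and among all genes called 1, 0 and 1. Averaged over temperatures, the LFC ran from -0.61 in CLOCK-11703 (interval -1.93 to 0.70) to 0.54 in PER1-56885 (interval -0.29 to 1.38), and the CLOCK-11703 value was 0.062 without C replicate 3. The closest limits were again those of ciarta (-0.11, interval -0.33 to 0.10) and per3 (-0.07, interval -0.28 to 0.14). For PER1-12499 the averaged SM LFC was 0.06, with an interval of -0.20 to 0.33. With library totals in place of TMM the median of all genes in this comparison moved to -0.15, and the SM differences of PER1-12499, per2 and NR1D2 changed sign.

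**Figure D4:**
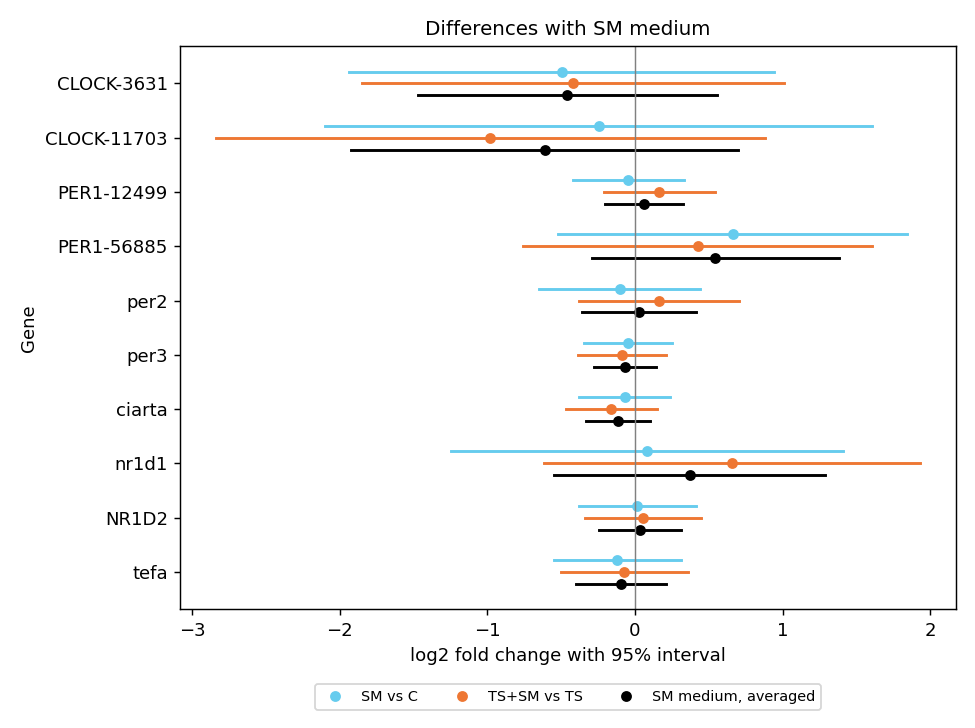
LFC (x axis, log2) of each clock gene in SM vs. C, in TS+SM vs. TS and averaged over temperatures, with points for the estimates and bars for 95% intervals. All 30 intervals cross 0.

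In TS+SM vs. C, which adds heat and SM together, 0 of 10 members were called, against 0.171% of all genes, and no edgeR P of a member was under 0.05, against 6.24% of all genes. DESeq2 called 0 of 10 as well, against 0.947% of the genes to which it gave an adjusted P. PER1-12499 was again the member with the lowest P, at an LFC of -0.36 ± 0.17 (edgeR P-adj = 0.838). The comparisons with C and those within a medium share pools, so they are not separate evidence. For the interaction of heat and SM, 0 of 10 members were called by edgeR and by DESeq2, against 0% of all genes by edgeR and 0.00724% by DESeq2. No member had an interaction P under 0.05, against 0.915% of all genes, and the intervals were wide, from -3.36 to 1.89 for CLOCK-11703 at the widest and from -0.47 to 0.38 for per3 at the narrowest.

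The rest of the clock pathway was read from lists of known members. Of 30 matched partners of the loop (bmal, npas2, cry, ror, other nr1d, bhlhe, nfil3 and PAR bZIP genes), 24 passed the filter. In the averaged heat difference 0 of the 24 were called by edgeR, against 0.851% of all genes, and 4 had an unadjusted P under 0.05, against 9.36%. In TS vs. C and in TS+SM vs. SM, 0 of the 24 were called or had an unadjusted P under 0.05, which 4.45% and 6.01% of all genes had. Of the 24, 18 had a positive averaged LFC and 6 a negative one, where 49.5% of all genes were positive. The median was 0.14, against -0.0027 over all genes, and the values ran from -0.41 to 0.53. The 4 with an unadjusted P under 0.05 were nfil3-5 (LFC 0.35, edgeR P-adj = 0.290), rorcb (0.45, P-adj = 0.468), bmal2 (0.28, P-adj = 0.484) and RORA (0.40, P-adj = 0.503). The gene nfil3-5 belongs to the NFIL3 family, whose founding member represses D-box targets. The activator bmal2, a partner of CLOCK, averaged 19.2 ± 2.75 CPM in TS+SM pools and 16.7 ± 1.84 CPM in SM pools, and 18.9 ± 1.52 CPM in TS pools and 14.7 ± 2.84 CPM in C pools (SD, n = 3 each). Neither BMAL1 gene passed the test, at LFC -0.18 for BMAL1-6791 and -0.05 for BMAL1-35732.

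Of 10 matched genes, 9 of kinases and ubiquitin ligase subunits that act on clock proteins and timeless, 0 were called in the averaged heat difference, and the median LFC was -0.0026. Of 6 light-induced and DNA repair genes, which share D-box control with per2 in zebrafish, 0 were called and the LFC ran from -0.18 to 0.12. Of 6 matched marker genes of the pineal gland, the light-sensing clock organ of the embryo, 0 were called. None of the genes in these 3 short lists had an unadjusted edgeR P under 0.05, and among all genes 0.851% were called and 9.36% had such a P. The pineal markers summed to 6.87 to 10.0 CPM in TS+SM pools, 7.42 to 9.92 CPM in TS pools, 7.28 to 12.7 CPM in SM pools and 7.21 to 8.21 CPM in C pools.

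**Figure D5:**
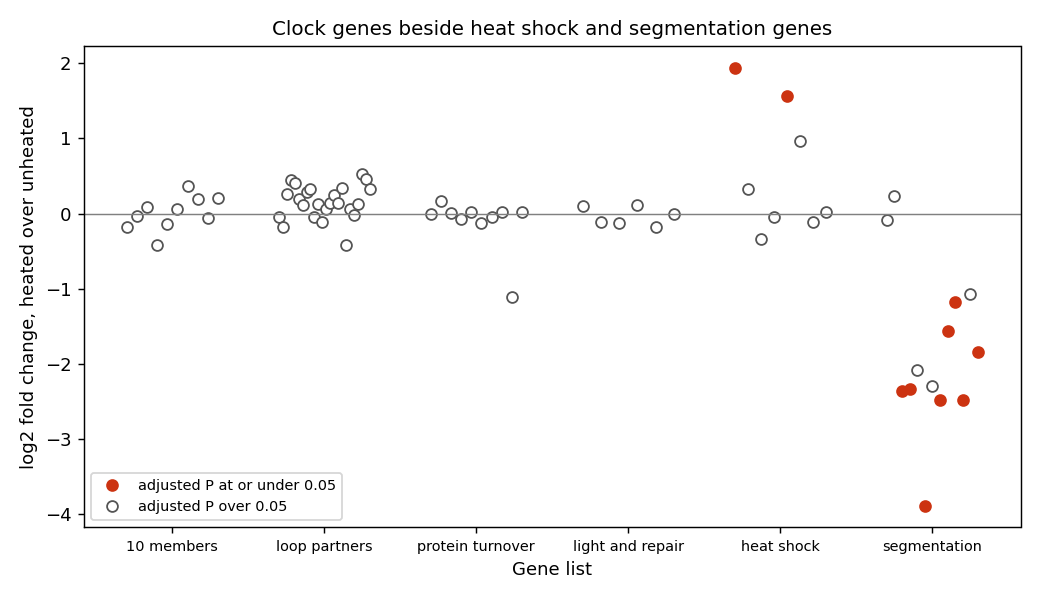
LFC (y axis, log2, heated over unheated pools averaged over media) of each tested gene in 6 lists, filled red where P-adj was 0.05 or less. No clock gene or partner is filled, 2 heat shock genes are filled above 0 and 8 segmentation genes are filled below 0.

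The genes whose levels over the 12 pools were most like those of PER1-12499 were rrp8 (r = 0.922), zgc:173556 (r = 0.918) and PWP2 (r = 0.912), given as a description without a test. Their averaged heat LFC was -0.43, -0.73 and -0.37, and none of them was called.

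Library totals ran from 18764434 counts to 60239167 counts in TS+SM replicate 1, with a median of 24659757.5. Libraries of a group differed by more than counting noise, at a chi-square per degree of freedom of 4.46 to 155. The lowest value was that of TS replicates 1 and 2, and the next lowest was 18.7, for SM replicates 1 and 2. No library was thus a second sequencing run of another of its group. Whether 2 libraries came from the same RNA cannot be told from these values. With 3 pools against 3 an exact permutation test cannot go below P = 0.10. The group comparisons therefore used models over all genes. Their P values set each difference between groups against the spread between pools.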

How the data were processed

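The data were RNA-seq of 12 pools of zebrafish embryos. The authors trimmed reads with fastp 0.23.1 and aligned them with STAR 2.6.1 to GRCz11, per the submitters' processing notes, and deposited raw counts per gene without normalization, in an unstranded and 2 stranded columns. The reverse-strand column was used, since 2.61% to 3.45% of stranded counts lay on the opposite strand. The 4 summary lines stayed out of totals: reads without a feature were 9.42% to 12.2%, multimapping 4.51% to 10.4%, unmapped 3.14% to 4.63% and ambiguous 0.799% to 1.03%.

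Symbols came from a name table covering 29201 of 32520 identifiers. Of the 10 members, 5 matched by symbol, 4 as pairs and 1 by elimination. Members and lists were chosen with earlier results of these data known. The named genes were all members, the listed partners at an unadjusted P under 0.05 with heat and both BMAL1 genes, the genes most like PER1-12499, and check genes.

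Groups came from the sample labels. Tests used R 4.3.3 and edgeR 4.0.16 (filterByExpr, TMM, robust quasi-likelihood F test, two-sided, 1 model of 12 libraries, Benjamini-Hochberg over 18688 genes). Standard errors are Wald errors. Levels for correlations were log2 CPM with a prior count of 2. Alternatives were DESeq2 1.42.0, its size factors, no filter, a replicate block, the unstranded column, only the groups compared, each library left out, and, chosen after seeing the data, library totals without TMM. Scripts were tested on simulated data with 100 genes changed 2-fold and 100 changed 4-fold, all above a minimum mean count. Of the 2-fold changes, 49% were called in TS vs. C and 80% in the averaged heat difference. Of the 4-fold changes, 94% and 100% were called. A 2-fold change can thus go uncalled.

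Replicate numbers are shared between groups in the labels. The correlation of same-numbered deviations from the group means was 0.294 to 0.786 for TS with C and 0.106 to 0.619 for TS+SM with C. Pools with the same number thus tended to deviate in the same direction in those groups, though weakly for replicate 2, which gave the lowest value in both. The deviations within a group sum to 0, so the values for the replicate numbers are not independent. The RNA numbers in the sample titles were higher for every replicate 3 pool than for the pools of replicates 1 and 2. The labels do not say what a replicate number or an RNA number stands for. Whether the groups were paired was therefore not settled. For SM with C it was -0.304 to 0.322, and for TS with SM -0.439 to 0.173. For TS+SM with SM it was 0.0239 to 0.498, and for TS+SM with TS 0.0608 to 0.556. In these it was not over 0.1 for every replicate number, though for TS+SM with SM and TS+SM with TS it was positive for each. The main model had no term for replicate number, so its P values and intervals ignore any pairing. Replicate number entered only in the replicate block.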

Additional observations from a re-analysis of the deposited data

Results flagged for a closer look

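A few reads lay on the strand opposite to a clock gene, in the column that no comparison used. For 2 genes all 3 TS+SM pools were above all 3 C pools there, out of 30 comparisons of a treatment with C over the 10 members, and for none in TS or SM. Among the 18688 genes tested, 2.70% had all 3 TS+SM pools above all 3 C pools in that column, 1.5% had so in TS and 2.76% in SM. Opposite-strand counts of nr1d1 were 4 to 7 in TS+SM pools, against 0 to 2 in C pools, and averaged 0.219 CPM in TS+SM pools. Opposite-strand counts of tefa were 16 to 39 in TS+SM pools, against 7 to 15 in C pools, and averaged 0.868 CPM in TS+SM pools, where they spanned 0.774 to 0.955 CPM, against 0.266 to 0.525 CPM in C pools. They made up 17.2% of the stranded counts of nr1d1 and 0.998% of those of tefa over the 12 pools. These differences were not tested.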

How the results depend on the processing

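With DESeq2, its size factors, no filter, the replicate block, the unstranded column and, for the 5 pairs of groups, only the groups compared, the count of members called stayed at 0 in each of the 8 comparisons, each library left out in turn included. All 10 members were tested each time, except that 9 were with only the groups compared, where 1 did not pass the filter. With library totals in place of TMM, chosen after seeing the data, 1 member was called with heat averaged over media, PER1-12499 (LFC -0.51, P-adj = 0.0358 by edgeR). Its P-adj in this comparison was 0.102 with DESeq2, 0.126 with the replicate block and up to 0.483 with a library left out (without C replicate 2). The replicate block changed no call, and gave 0 of 10 members called in each comparison.

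Several differences changed sign. With library totals the LFC was -0.0026 for per2, -0.050 for nr1d1 and -0.011 for NR1D2 in TS vs. C, -0.057 for ciarta in TS+SM vs. SM, -0.017 for ciarta with heat averaged, and -0.092 for PER1-12499, -0.12 for per2 and -0.093 for NR1D2 with SM averaged. The LFC of CLOCK-3631 in TS+SM vs. SM, 0.0001, was -0.0090 without the filter, -0.31 with the replicate block and -0.011 in the unstranded column. With 1 library left out, the ranges that crossed 0 in TS vs. C were -0.86 to 1.49 for CLOCK-11703, -0.74 to 0.40 for CLOCK-3631, -0.23 to 0.49 for nr1d1, -0.054 to 0.20 for NR1D2, -0.35 to 0.25 for PER1-56885, -0.16 to 0.32 for per2 and -0.12 to 0.074 for per3. In TS+SM vs. SM they were -0.11 to 0.077 for ciarta, -0.81 to 0.48 for CLOCK-3631 and -0.55 to 0.030 for PER1-56885. With heat averaged they were -0.0030 to 0.090 for ciarta, -0.69 to 0.48 for CLOCK-11703 and -0.44 to 0.21 for CLOCK-3631. With SM averaged they were -1.01 to 0.062 for CLOCK-11703, -0.032 to 0.12 for NR1D2, -0.029 to 0.13 for PER1-12499, -0.070 to 0.17 for per2 and -0.21 to 0.020 for tefa. None of these differences was called. The causes were not tested.

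PER1-56885, nr1d1 and CLOCK-11703 had as few as 4 or 5 counts in a library. What set the width of the intervals was not tested.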
